A study of Mus musculus with 72 samples.

Results

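The 9 genes of the membrane-bound adenylyl cyclases, Adcy1 to Adcy9, were followed by name through a mouse model of IDDCA, the intellectual disability and cardiac arrhythmia syndrome caused by loss of GNB5. All 9 were found among the 53715 gene identifiers counted in each library, each under 1 Ensembl identifier. RNA-seq of total RNA was performed on 72 libraries from 18 male mice of 18 weeks, 6 of each genotype: wild-type (Gnb5+/+), heterozygous (Gnb5+/-) and knockout (Gnb5-/-). The mutant allele is a germline deletion of Gnb5 exon 3 on a C57BL/6J background, so that this exon is lost in all tissues and at all ages of a knockout animal. Litters came from heterozygous parents. Atria and ventricles, each left and right together, were taken from all 3 genotypes. Whole cerebellum, both hippocampi and whole cerebral cortex were taken from Gnb5+/+ and Gnb5-/- mice, which gives 12 groups of 6 libraries in 5 tissues. The atrial samples include the cells of the sinoatrial and atrioventricular nodes.

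Adenylyl cyclases turn ATP into cyclic AMP, the messenger through which beta-adrenergic receptors speed and strengthen the heartbeat and through which neurons adjust their synapses. Gs stimulates all membrane forms, Gi inhibits several of them, and the forms differ in what else they sense: Adcy1, Adcy3 and Adcy8 respond to calcium and calmodulin, Adcy2, Adcy4 and Adcy7 to free beta-gamma dimers, Adcy5 and Adcy6 are inhibited by calcium and are known as the main forms of heart muscle, and Adcy9 is barely sensitive to forskolin. Gnb5 encodes the divergent beta subunit that pairs with R7 RGS proteins, which end signalling by Gi and Go. The comparisons therefore ask where each cyclase was transcribed, and whether its transcript level differed when this brake on inhibitory G proteins was lost.

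On GRCm38, the calmodulin-sensitive members lie at chr11:7063489-7178506 (Adcy1, ENSMUSG00000020431), chr12:4133103-4213525 (Adcy3, ENSMUSG00000020654) and chr15:64697084-64922296 (Adcy8, ENSMUSG00000022376). The members that respond to beta-gamma lie at chr13:68620043-68999541 (Adcy2, ENSMUSG00000021536), chr14:55769057-55784095 (Adcy4, ENSMUSG00000022220) and chr8:88272403-88329962 (Adcy7, ENSMUSG00000031659). Adcy5 (ENSMUSG00000022840) lies at chr16:35154877-35305738, Adcy6 (ENSMUSG00000022994) at chr15:98589973-98610076 and Adcy9 (ENSMUSG00000005580) at chr16:4287529-4420498. Their exons add up to between 4211 bases (Adcy2) and 12522 bases (Adcy1), and counts were taken over all exons of a gene, untranslated parts included. Adcy3 shares 1380 exon bases, 22.1% of its exons, with Cenpo on the opposite strand. Adcy6 shares 605 bases with an antisense transcript and Adcy2 shares 189. The library kit marked strand, but whether the counting used it is not given in the sources used here, so reads of these pairs may not be separable.

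Reads on genes ranged from 29204390 to 48807435 per library. Gnb5 followed the labels in every library: in ventricles it was 16.9 to 21.02 CPM (normalized counts relative to library size) in Gnb5+/+, 8.29 to 11.6 in Gnb5+/- and 0.532 to 1.41 in Gnb5-/-, and the groups were equally separate in the other tissues. Markers of atria, ventricles and cerebellum followed the labels too. The summed CPM of 4 atrial muscle genes was 21738 to 39312 in atria and 130 to 489 in ventricles. That of 4 ventricular muscle genes was 13295 to 22967 in ventricles and 46.5 to 1346 in atria (78.5 to 1346 in wild-type atria, median 395). The part of this varying ventricular signal in the atrial levels of the members was not tested. The summed CPM of 5 cerebellar granule cell genes was 2965 to 3804 in cerebellum and at most 46.9 elsewhere. Of the granule cell genes, Gabra6 and Neurod1 were at 0 in every ventricular group. The summed CPM of 5 hippocampal neuron genes was 347 to 432 in wild-type hippocampus and 165 to 227 in wild-type cortex. In wild-type ventricles it was 294 to 393, so this list did not separate hippocampus from heart. That of 5 cortical excitatory neuron genes overlapped between wild-type cortex (941 to 1119) and hippocampus (987 to 1103). Before any result, 4 libraries have to be named because they stood apart: Gnb5+/- ventricles replicate 4, Gnb5-/- cerebellum replicate 2, and Gnb5-/- cortex replicates 3 and 5. Their share of reads outside annotated genes was low for their tissue (2.85% against 4.41% to 5.71% in the other ventricular libraries, 8.02% against 14.02% to 16.97% in cerebellum, 6.86% and 8.32% against 13.1% to 15.6% in cortex). None of them is a wild-type library, so the tissue comparison does not use them.

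In wild-type mice the brain and the heart differed in their most abundant cyclase transcript. Adcy1 was the most abundant form per length of transcript in all 3 brain regions and Adcy6 in both heart tissues. Adcy1, a calmodulin-stimulated form known for its part in synaptic plasticity, reached 151, 170 and 171 CPM per kb (lowest, median and highest of 6 mice) in cerebellum, 69.2, 76.6 and 98.5 in hippocampus, and 70.6, 73.6 and 80.8 in cortex. In atria it was 8.24, 9.49 and 11.2, and in ventricles 0.262, 0.301 and 0.417. Every cerebellar value lay above every hippocampal one, and every atrial value above every ventricular one, while hippocampus and cortex overlapped. The log2 difference of atria over ventricles was 5.01 ± 0.10 (SE, n = 6 mice, edgeR quasi-likelihood test with mouse as block, adjusted p = 1.1e-23), a fold of 32.3 and the greatest of any member between the heart tissues. Cerebellum exceeded hippocampus by 1.11 ± 0.08 (adjusted p = 1.8e-12), and hippocampus and cortex differed by 0.12 ± 0.08 (adjusted p = 0.27).

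**Figure D1:**
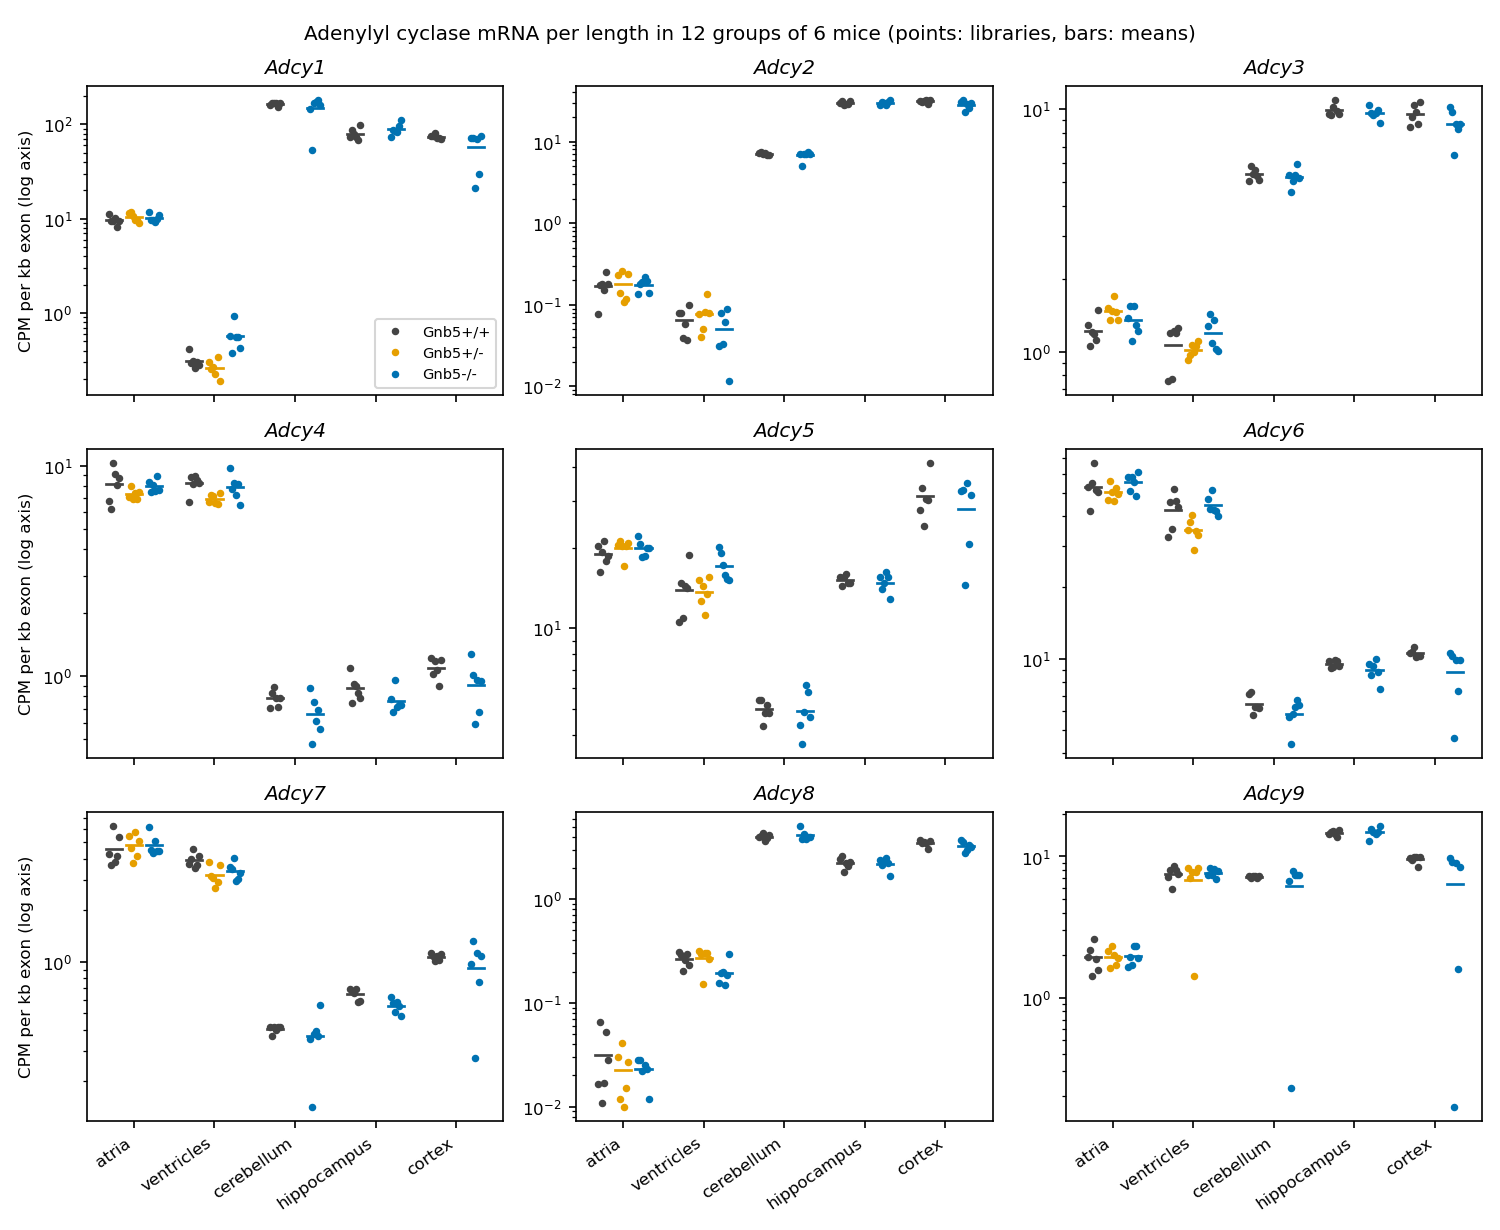
Level of each adenylyl cyclase (CPM per kb of exon, log axis, a separate scale per gene) in every library, by tissue and genotype; points are the 6 libraries of a group and bars their means. Adcy1 in wild-type mice falls from a mean of 166 in cerebellum to 0.311 in ventricles, whereas Adcy6 falls from 53.1 in atria to 6.48 in cerebellum; the isolated low points of Adcy9 are the 4 libraries that stood apart.

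The other calmodulin-sensitive members were also brain forms, at much lower levels. Adcy8 was at 3.65, 3.99 and 4.33 CPM per kb (lowest, median, highest) in wild-type cerebellum, at 3.07, 3.53 and 3.74 in cortex and at 1.82, 2.27 and 2.596 in hippocampus. Cerebellum and cortex overlapped, and their log2 difference of 0.27 ± 0.10 (adjusted p = 0.014) missed the threshold with RLE size factors (0.20, adjusted p = 0.066) and with DESeq2 (0.20, adjusted p = 0.20). In the heart it was at 0.202, 0.275 and 0.310 in ventricles and at 0.0108, 0.0223 and 0.0652 in atria, where 3 to 13 reads per library carried it. Adcy8 was thus the mirror image of Adcy1 within the heart: ventricles exceeded atria in 6 of 6 mice, by a fold of 8.57 (log2 difference of atria over ventricles -3.10 ± 0.22, SE, adjusted p = 2.3e-12). Adcy3, known from olfactory neurons and primary cilia, had means of 9.93 ± 0.55 (SD, n = 6) in hippocampus and 9.55 ± 0.90 in cortex, which overlapped, 5.39 ± 0.30 in cerebellum, 1.22 ± 0.15 in atria and 1.06 ± 0.23 in ventricles. Its atrial and ventricular values overlapped (log2 difference 0.25 ± 0.11, adjusted p = 0.052).

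The 3 beta-gamma-responsive members did not share a pattern. Adcy2 was a forebrain transcript, with 28.6, 31.4 and 32.1 CPM per kb in cortex and 27.7, 29.4 and 31.6 in hippocampus, regions that did not differ beyond their spread (adjusted p = 0.69), and 6.80, 7.11 and 7.38 in cerebellum. It was nearly missing from the heart, at 12 to 30 reads per atrial library and 3 to 11 per ventricular library. Adcy4 and Adcy7 went the other way. Adcy4 stood at 6.71, 8.40 and 8.96 CPM per kb in ventricles and 6.23, 8.41 and 10.3 in atria, which overlapped (log2 difference 0.03 ± 0.10, adjusted p = 0.81, with the sign depending on the scaling). In the brain its highest wild-type value was 1.21. Cerebellum and hippocampus overlapped (log2 difference -0.10 ± 0.11, adjusted p = 0.41). Adcy7, best known from blood and immune cells, had means of 4.60 ± 0.99 (SD, n = 6) in atria and 3.95 ± 0.38 in ventricles, and of 0.405 ± 0.018 in cerebellum, 0.647 ± 0.049 in hippocampus and 1.07 ± 0.05 in cortex. The 3 brain regions did not overlap with each other for Adcy7, and cortex exceeded cerebellum by a fold of 2.52 (adjusted p = 1.7e-12). The summed CPM of 6 endothelial marker genes lay between 937 and 1385 in wild-type heart and between 67.4 and 105 in wild-type brain, and thus moved with Adcy4 between the organs. Within the heart it was 937 to 1212 in atria and 1154 to 1385 in ventricles. The summed CPM of 6 fibroblast genes separated the organs too (1311 to 2893 in wild-type heart, 58.1 to 147 in wild-type brain). That of 6 macrophage and microglia genes was highest in atria (221 to 292) and lowest in cerebellum (49.6 to 54.2), as was Adcy7, but reached 184 to 199 in cortex against 155 to 199 in ventricles. The part of any of these lists in the differences was not tested. In bulk tissue, fewer cells of a type and less RNA per cell cannot be told apart.

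Adcy6 made up most of the heart's adenylyl cyclase mRNA. Its wild-type level was 42.0, 52.1 and 66.8 CPM per kb in atria and 32.6, 44.5 and 51.9 in ventricles, and it lay between 5.78 and 11.2 in all wild-type brain libraries. Atria were higher than ventricles in 5 of 6 mice (log2 difference 0.37 ± 0.09, adjusted p = 0.0014), although the ranges overlapped. Adcy5, the other calcium-inhibited form, was the least tied to 1 organ. It was highest in cortex (24.1, 30.3 and 41.4), then atria (16.2, 18.9 and 21.1), hippocampus (14.4, 15.2 and 15.99), ventricles (10.6, 14.3 and 18.8) and cerebellum (4.32, 5.01 and 5.38). The ventricular values enclosed those of hippocampus (log2 difference -0.19 ± 0.11, adjusted p = 0.10), a difference that passed the test without a filter on low counts (-0.29 ± 0.10, adjusted p = 0.0086) and with scaling by library totals alone (-1.20, adjusted p = 4.0e-10). The small excess of atria over hippocampus (0.32 ± 0.11, adjusted p = 0.0075) changed sign when libraries were scaled by their totals alone. Adcy9 was highest in hippocampus (13.8, 14.7 and 15.5), followed by cortex (8.47, 9.79 and 9.98). Ventricles (5.93, 7.74 and 8.49) and cerebellum (7.02, 7.24 and 7.31) came next and overlapped (log2 difference -0.05 ± 0.08, adjusted p = 0.58), and atria were lowest (1.42, 1.91 and 2.604). Like Adcy8, Adcy9 was higher in ventricles than in atria in 6 of 6 mice, by a fold of 3.77 (adjusted p = 4.8e-16).

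Counted over the family, 7 of 9 members differed between wild-type atria and ventricles, 5 higher and 2 lower in atria, where 53.6% of all 19477 genes tested differed (31% higher and 22.7% lower). Among the members, Adcy7 (0.26, adjusted p = 0.016) missed the threshold with DESeq2 (adjusted p = 0.052) and in a fit of these tissues alone (adjusted p = 0.10), and Adcy3 passed it without a filter on low counts (adjusted p = 0.040). All 9 differed between atria and cerebellum (87.3% of all genes), atria and hippocampus (87.6%), atria and cortex (88.1%) and ventricles and cortex (88.3%). Between ventricles and cerebellum (87.3%) and between ventricles and hippocampus (87.8%) 8 of 9 differed. Within the brain, 8 of 9 differed between cerebellum and hippocampus (70.8%), 9 of 9 between cerebellum and cortex (71.8%; Adcy8 depended on the tool and scaling, as above) and 5 of 9 between hippocampus and cortex (37.7%). For hippocampus against cortex, Adcy4 missed the threshold without a filter on low counts (adjusted p = 0.061). Adcy6 passed it there in a fit of these tissues alone (adjusted p = 0.011). Between ventricles and hippocampus the median size of the log2 difference was 3.13 over the 9 members and 1.497 over all genes, and between atria and cerebellum 3.32 and 1.40. Between hippocampus and cortex the medians were 0.30 and 0.23. In the contrasts of heart and brain, scaling by library totals alone moved the median of all genes from between -0.27 and -0.15 to between -1.33 and -0.79, and levels set across organs are relative to the TMM scaling. Between atria and ventricles it moved that median from 0.07 to 0.46, and the calls of all genes from 6029 higher and 4415 lower in atria to 10998 and 1845, and under that scaling all 9 members differed, Adcy3 and Adcy4 included.

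**Figure D2:**
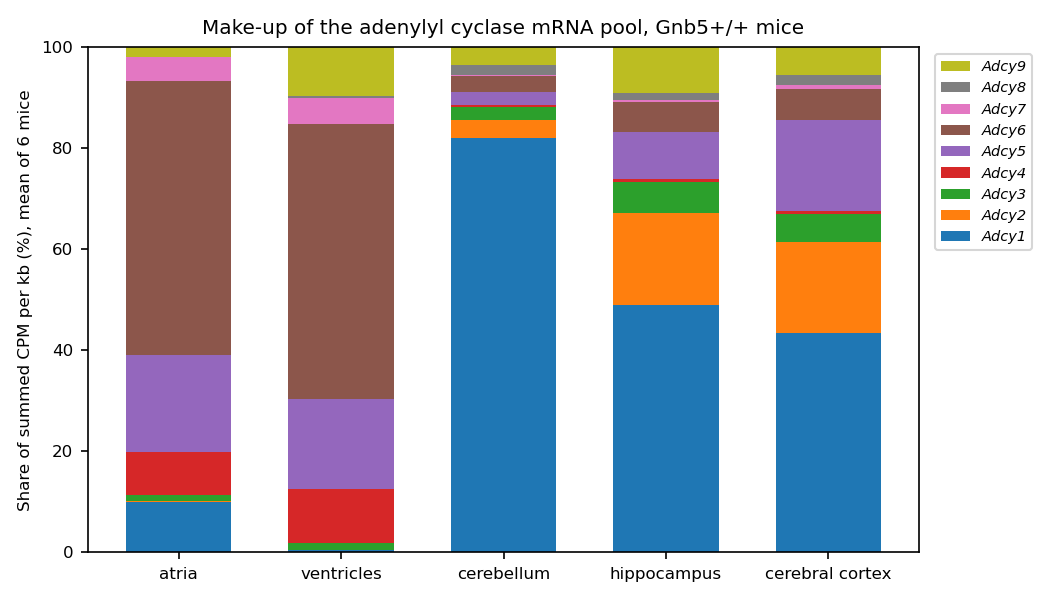
Share of each adenylyl cyclase in the summed CPM per kb of the 9 genes (%, stacked bars, mean of 6 wild-type mice) in each tissue. Adcy1 takes 82.0% in cerebellum and 0.415% in ventricles, and Adcy6 takes 54.1% in atria, 54.4% in ventricles and 3.21% in cerebellum.

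As shares of the family's summed level per length, Adcy1 took 82.0% ± 0.8 (SD, n = 6) in cerebellum, 49.0% ± 3.0 in hippocampus and 43.3% ± 2.5 in cortex. Next in hippocampus came Adcy2, Adcy5, Adcy9, Adcy3 and Adcy6, and next in cortex Adcy5, Adcy2, Adcy6, Adcy9 and Adcy3. Their shares in hippocampus and cortex were 18.3% ± 0.8 and 18.0% ± 0.6 for Adcy2 and 9.36% ± 0.86 and 18.1% ± 3.0 for Adcy5. They were 9.05% ± 0.38 and 5.56% ± 0.25 for Adcy9, 6.12% ± 0.63 and 5.55% ± 0.38 for Adcy3, and 5.89% ± 0.57 and 6.13% ± 0.28 for Adcy6. In atria Adcy6 took 54.1% ± 2.2, Adcy5 19.4% ± 0.8 and Adcy1 9.96% ± 1.27, and in ventricles Adcy6 took 54.4% ± 2.5, Adcy5 17.8% ± 2.3 and Adcy4 10.7% ± 0.9. After Adcy6 and Adcy5, the next form was thus Adcy1 in atria and Adcy4 in ventricles, where Adcy9 took 9.70% ± 0.90. On CPM without division by length, Adcy4 and Adcy9 changed places in ventricles (7.67% ± 0.66 and 7.77% ± 0.73). The sum itself was 202 ± 8 CPM per kb in cerebellum, 172 ± 6 in cortex, 163 ± 12 in hippocampus, 97.8 ± 11.3 in atria and 77.8 ± 10.9 in ventricles.

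For each member, the protein-coding genes with the most similar profile were found by Pearson's r of log2 CPM over all 72 libraries, which share tissues and mice, so that r mostly follows the tissue. The 2 genes closest to Adcy1 were Spock2 and Lrp8 (r = 0.99 for both). Adcy2 was closest to Fbxl16 and Dlg3, Adcy3 to Trim46 and Adcyap1r1, and Adcy8 to Sel1l3 and Cadm4 (r = 0.98 to 0.99). The heart-enriched members were closest to Adgre5 and the endothelial gene Pecam1 (Adcy4, r = 1.00 and 0.99), Shc1 and Col15a1 (Adcy6, 0.99 for both) and Piezo1 and C1qtnf1 (Adcy7, 0.98 for both). Adcy5 was closest to Tox3 (0.94) and the dopamine receptor gene Drd2 (0.93), and Adcy9 to Naa25 (0.95) and Mtor (0.94), the lowest values of the family. The 72 libraries include the 4 that stood apart, in which Adcy9 was at 1.95% to 17.5% of the median of the other libraries. Its r therefore may not mostly follow the tissue, and no r was computed without these libraries.

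Between genotypes, Adcy1 in ventricles was the only member that passed the test in any contrast of either tool. In the edgeR quasi-likelihood test, 0 of 8 members tested were called between Gnb5-/- and Gnb5+/+ in atria (0.253% of all genes were), 0 of 8 in ventricles (0.188%), 0 of 9 in cerebellum (0.0817%), 0 of 9 in hippocampus (0.165%) and 0 of 9 in cortex (0.0557%). At an unadjusted p below 0.05 there were 0, 4, 0, 1 and 0 members, where 8.15%, 4.78%, 5.85%, 7.70% and 7.39% of all genes passed. DESeq2's Wald test called 1 member, Adcy1 in ventricles, and none in the other 4 tissues. The shares of all genes given here are those of edgeR, and none is given for DESeq2. Between Gnb5+/- and Gnb5+/+, 0 of 8 were called in atria (0.0124%) and 0 of 8 in ventricles (0.0202%) by either tool, with 1 and 3 members at an unadjusted p below 0.05 (7.22% and 4.84% of all genes). Between Gnb5-/- and Gnb5+/-, 0 of 8 were called in atria (0.0494%) by either tool and 1 of 8 in ventricles (0.0874%, and 0.0202% higher in the knockout), Adcy1, by both tools, with 0 and 5 members at an unadjusted p below 0.05 (4.86% and 8.79% of all genes), the latter 4 without the library that stood apart. Adcy8 in atria and Adcy2 in ventricles had too few reads to be tested. The 3 contrasts of a heart tissue share their libraries and are not independent.

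In ventricles Adcy1 was at 2.91, 4.31 and 7.07 CPM (lowest, median and highest of 6 mice) in Gnb5-/-, at 1.47, 2.04 and 2.67 in Gnb5+/- and at 2.01, 2.31 and 3.26 in Gnb5+/+. All 6 knockout mice lay above all 6 heterozygous mice and above the wild-type mean, and they overlapped with the wild-type group through replicate 1 of the wild-type mice, which exceeded replicate 2 of the knockouts. The reads behind these values were few, 99 to 331 per knockout library, 43 to 82 per heterozygous library and 67 to 95 per wild-type library. The knockout mean was 4.38 ± 1.46 (SD, n = 6) against 2.04 ± 0.44 in Gnb5+/-, a log2 difference of 1.10 ± 0.20 (SE, edgeR adjusted p = 0.027) or 2.15-fold. Groups did not overlap for 1% of all genes in this contrast, and the exact permutation p was 0.00216, the smallest that 6 mice against 6 allow. Against the wild-type mean of 2.41 ± 0.44 the log2 difference was 0.87 ± 0.19 or 1.82-fold, which missed the threshold in edgeR (unadjusted p = 0.00023, adjusted p = 0.086) and passed it in DESeq2 (adjusted p = 0.0061; 0.0061 to 0.13 over 8 other settings). The exact permutation p was 0.00433. Heterozygous and wild-type mice differed by -0.24 ± 0.20 (adjusted p = 0.98), and by -0.18 ± 0.21 without the library that stood apart (adjusted p = 0.86).

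How far the ventricular call of Adcy1 rests on single mice was checked by leaving out each library in turn. The log2 difference of knockout over wild-type stayed between 0.68 and 0.97. It passed the threshold without knockout replicate 2 (adjusted p = 0.038) or without wild-type replicate 1 (adjusted p = 0.040), and in none of the other 16 cases. The difference of knockout over heterozygous mice stayed between 0.92 and 1.203, and the call was lost without heterozygous replicates 2 or 6 or knockout replicates 1 or 4 (adjusted p = 0.058 to 0.087). It was also lost when the fit held these genotypes alone (adjusted p = 0.076), and kept without the heterozygous library that stood apart (1.05 ± 0.21, adjusted p = 0.047). Since Adcy1 was 32.3-fold higher in atria, the atrial marker genes were examined in the same libraries. Their summed CPM was 179, 290 and 398 (lowest, median, highest) in Gnb5-/-, 131, 223 and 489 in Gnb5+/- and 130, 263 and 327 in Gnb5+/+, with all 4 genes (Myl7, Myl4, Sln and Nppa) detected in each group, and the groups overlapped. With this sum as a covariate the log2 difference of Adcy1 was 0.86 against wild-type (adjusted p = 0.11) and 1.09 against heterozygous mice (adjusted p = 0.035). Across the 6 knockout libraries the atrial sum and Adcy1 had r = 0.55 (exact permutation p = 0.26, adjusted 0.38 over 3 relations) and rho = 0.60 (p = 0.24, adjusted 0.36), and without the 2 libraries farthest in the sum r was -0.67. Across the 6 wild-type libraries r was -0.13 (exact permutation p = 0.70) and rho 0.26 (p = 0.66), both unchanged by the adjustment, with r = -0.47 without the 2 farthest.

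**Figure D3:**
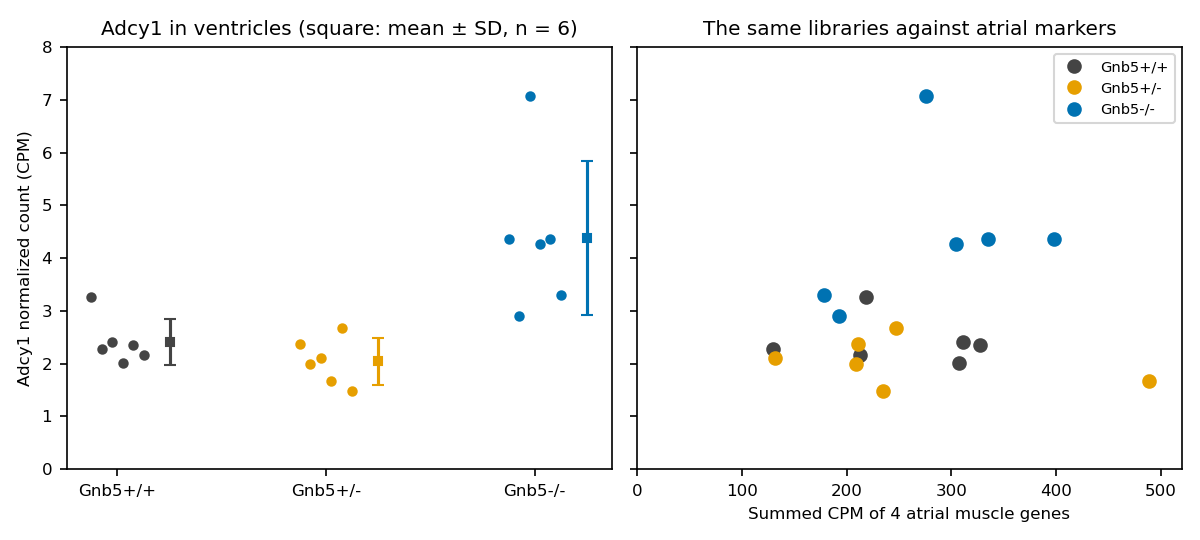
Left, Adcy1 in ventricles (normalized count, CPM) for each mouse by genotype, with mean ± SD as squares (n = 6); right, the same values against the summed CPM of 4 atrial muscle genes. The knockout values of 2.91 to 7.07 lie above all heterozygous values (up to 2.67), and 1 wild-type mouse at 3.26 reaches into the knockout range.

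In atria, where Adcy1 was far more abundant, it was at 104, 110 and 132 CPM in Gnb5-/- and at 91.6, 106 and 125 in Gnb5+/+, with overlapping groups (log2 difference 0.08 ± 0.08, adjusted p = 0.87). The difference between the ventricular and the atrial effect was 0.76 ± 0.18 (interaction in edgeR with mouse as block, unadjusted p = 0.00041, adjusted p = 0.29), and 0 of 16507 genes (0%) passed that test, with 640 (3.88%) at an unadjusted p below 0.05. Without a filter on low counts the same interaction had an adjusted p of 0.0015. The share of all genes that passed in that unfiltered fit is not given. Adcy7 had an unadjusted p of 0.048 (-0.30 ± 0.14, adjusted p = 1.00). The knockout effect on Adcy1 is therefore not shown to differ between the heart tissues at the main settings. No other interaction of a member passed in the heart or between brain regions (0.0258% of all genes for cerebellum against hippocampus, 0.0103% for cerebellum against cortex, 0% for hippocampus against cortex, where 857 of 19388 genes, 4.42%, had an unadjusted p below 0.05 and 0 of 9 members did).

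Several other members had small ventricular differences that did not pass the correction over all genes. The calcium-inhibited Adcy5 was at 67.3, 72.5 and 88.0 CPM in Gnb5-/- and 47.5, 63.1 and 83.5 in Gnb5+/+, and all 6 knockouts lay above the wild-type mean but within the wild-type range or just over it (log2 difference 0.29 ± 0.12, unadjusted p = 0.032, adjusted p = 0.94). Adcy8 was at 0.737, 0.951 and 1.496 CPM against 1.04, 1.37 and 1.58, lower than the wild-type mean in 5 of 6 knockouts (-0.45 ± 0.20, adjusted p = 0.99), on 28 to 50 reads per library. Adcy7 was lower than the wild-type mean in 5 of 6 knockouts (-0.22 ± 0.10, adjusted p = 1.00) and in 6 of 6 heterozygous mice (-0.29 ± 0.10, adjusted p = 0.96). Adcy6, the leading form, had medians of 178 CPM in Gnb5-/-, 146 in Gnb5+/- and 186 in Gnb5+/+. The knockout differed from wild-type by 0.06 ± 0.11 (adjusted p = 1.00) and from heterozygous mice by 0.34 ± 0.11 (adjusted p = 0.39), with all 6 knockouts above the heterozygous mean, and by 0.28 ± 0.10 without the heterozygous library that stood apart (adjusted p = 0.31). Adcy4 was below the wild-type mean in all 6 heterozygous mice (-0.25 ± 0.09, adjusted p = 0.96), in a group that includes the library that stood apart. Without that library, the heterozygous differences from wild-type were -0.22 ± 0.10 for Adcy6, -0.24 ± 0.10 for Adcy7 and -0.23 ± 0.09 for Adcy4.

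The atrial members were close to wild-type throughout. Of the 8 tested in Gnb5-/- atria, 7 were above and 1 below wild-type, with log2 differences from -0.04 to 0.14, a median of 0.07 (0.00 over all genes) and standard errors of 0.07 to 0.28. Adcy6 was at 297, 343 and 369 CPM in Gnb5-/- and 257, 314 and 400 in Gnb5+/+, so that the knockout values lay inside the wild-type range. The member with the smallest p was Adcy3 in heterozygous atria, at 7.44, 8.14 and 9.48 CPM against 5.93, 6.60 and 8.25 in wild-type. All 6 heterozygous mice lay above the wild-type mean, and the groups overlapped (0.27 ± 0.10, unadjusted p = 0.018, adjusted p = 0.64). It was among 7.22% of all genes with an unadjusted p below 0.05, and knockout atria had 0.14 ± 0.10 (adjusted p = 0.81).

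**Figure D4:**
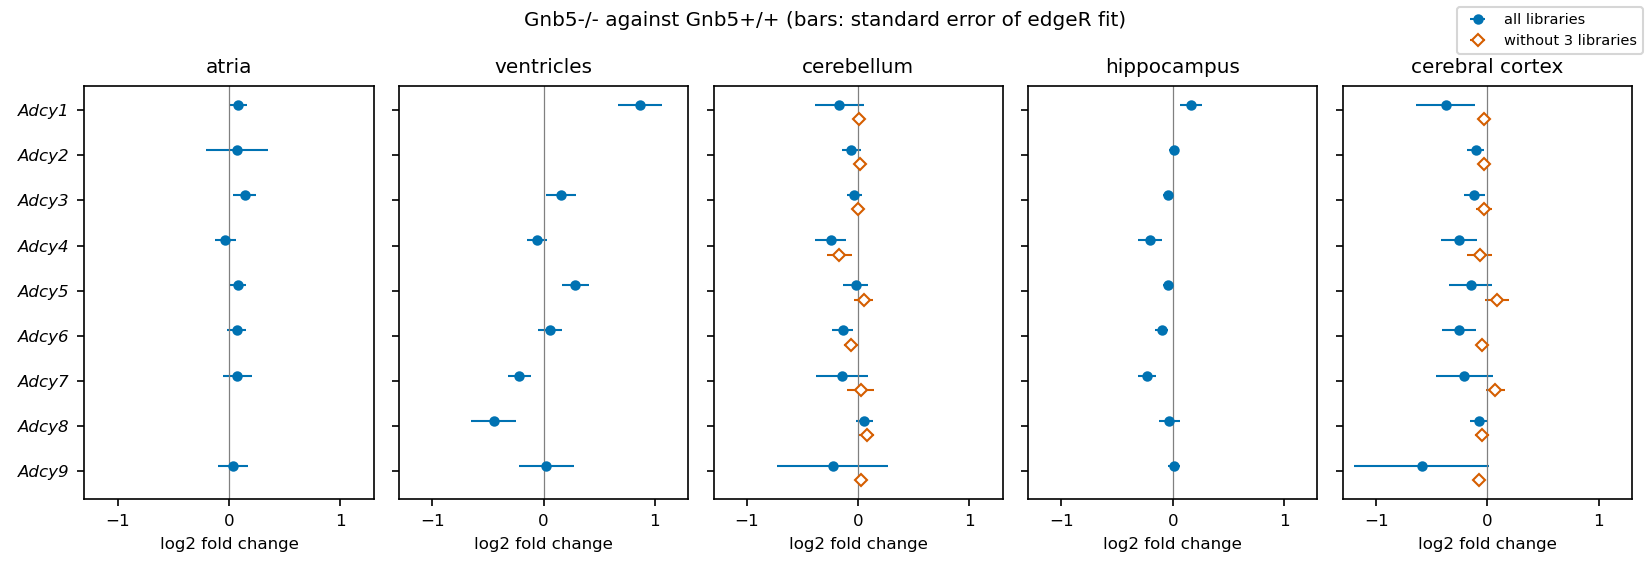
Log2 fold change of Gnb5-/- over Gnb5+/+ for each member in each tissue (filled circles, bars are the SE of the edgeR fit), and in cerebellum and cortex also without the 3 knockout libraries that stood apart (open diamonds); members without a symbol had too few reads. The value of Adcy1 in ventricles, 0.87, is the farthest from 0, and in cortex Adcy9 moves from -0.59 to -0.08 without 2 libraries.

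Hippocampus held no library that stood apart. Log2 differences of its 9 members ran from -0.23 to 0.16 with standard errors of 0.04 to 0.11, and the median size was 0.04 (0.06 over all genes). Adcy7, at 4.20, 4.90 and 5.40 CPM in Gnb5-/- and 5.08, 5.83 and 6.06 in Gnb5+/+, was below the wild-type mean in 6 of 6 knockouts with overlapping groups (-0.23 ± 0.08, unadjusted p = 0.014, adjusted p = 0.54). Adcy1 was at 1186, 1405 and 1819 CPM against 1122, 1254 and 1589, higher than the wild-type mean in 5 of 6 knockouts (0.16 ± 0.10, adjusted p = 0.74). Adcy2, Adcy5, Adcy8 and Adcy9 lay within 0.04 of 0 on the log2 scale.

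In cerebellum and cortex the libraries that stood apart decided the values. In cortex all 9 members were below wild-type, with a median log2 difference of -0.21 (0.01 over all genes), and in cerebellum 8 of 9 were, with a median of -0.14 (0.00). Without the 3 libraries, 7 members were below and 2 above wild-type in cortex and 3 were below and 6 above in cerebellum, with medians of -0.03 and 0.01 and ranges of -0.08 to 0.08 and -0.17 to 0.08, and 0 members had an unadjusted p below 0.05 in either region. Adcy1 in cortex went from -0.38 ± 0.26 to -0.03 ± 0.04, and in cerebellum from -0.17 ± 0.22 to 0.01 ± 0.05. The remaining knockout means of Adcy1, 1208 ± 36 CPM in cortex (SD, n = 4) and 2958 ± 242 in cerebellum (n = 5), compare with 1236 ± 65 and 2951 ± 127 in wild-type (n = 6). The number of genes called over the whole transcriptome was 10 in cortex and 14 in cerebellum with all libraries, and 26 and 62 without the 3.

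Adcy9 was the member most altered in those libraries. In cortex it was at 1.28 and 10.96 CPM in knockout replicates 3 and 5, and between 58.4 and 68.7 in the 10 other libraries of either genotype. In knockout cerebellum replicate 2 it was at 1.71, against 48.8 to 58.2 in 11 others, and in heterozygous ventricles replicate 4 at 4.41, against 19.4 to 27.0 in 17 others. These values were 1.95%, 16.7%, 3.18% and 17.5% of the median of the other libraries, on 35, 471, 66 and 130 reads. Between 0.949% and 2.78% of all genes tested had an equal or lower ratio in the same library, where the median ratio of all genes was 0.963 to 1.011. Adcy1 was at 32.0% of the other libraries' median in the cerebellar library and at 32.3% and 40.9% in the cortical ones, and Adcy7 at 35.8%, 27.9% and 69.7%. Adcy8 was at 86.6% to 113% in all 4 libraries. Marker sums moved in both directions in these libraries. Of 17 marker lists, 7 lay below and 7 above all 11 other cerebellar libraries in the cerebellar one, 6 below and 5 above and 6 below and 2 above all 10 others in cortical replicates 3 and 5, and 3 below and 6 above all 17 others in the ventricular one. In cortex the summed CPM of 5 astrocyte genes was 1737 and 2469, against 3791 to 4568 in the others, and that of 5 cortical excitatory neuron genes was 423 and 726, against 941 to 1133. That of 5 general neuron genes was 4086 in replicate 3, above the 3077 to 3488 of the others, and 3418 in replicate 5. In the cerebellar library, 5 choroid plexus genes summed to 628 (others 8.83 to 14.7) and 5 oligodendrocyte genes to 3461 (others 1691 to 2426), while 5 Purkinje cell genes summed to 4448 (others 5443 to 6403). In the ventricular library, 4 ventricular muscle genes summed to 22967 (others 13295 to 15861) and 5 adipocyte genes to 821 (others 357 to 527), while 6 endothelial genes summed to 1036 (others 1154 to 1385). The part of these differences in the values of Adcy9, Adcy1 and the other members was not tested.

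**Figure D5:**
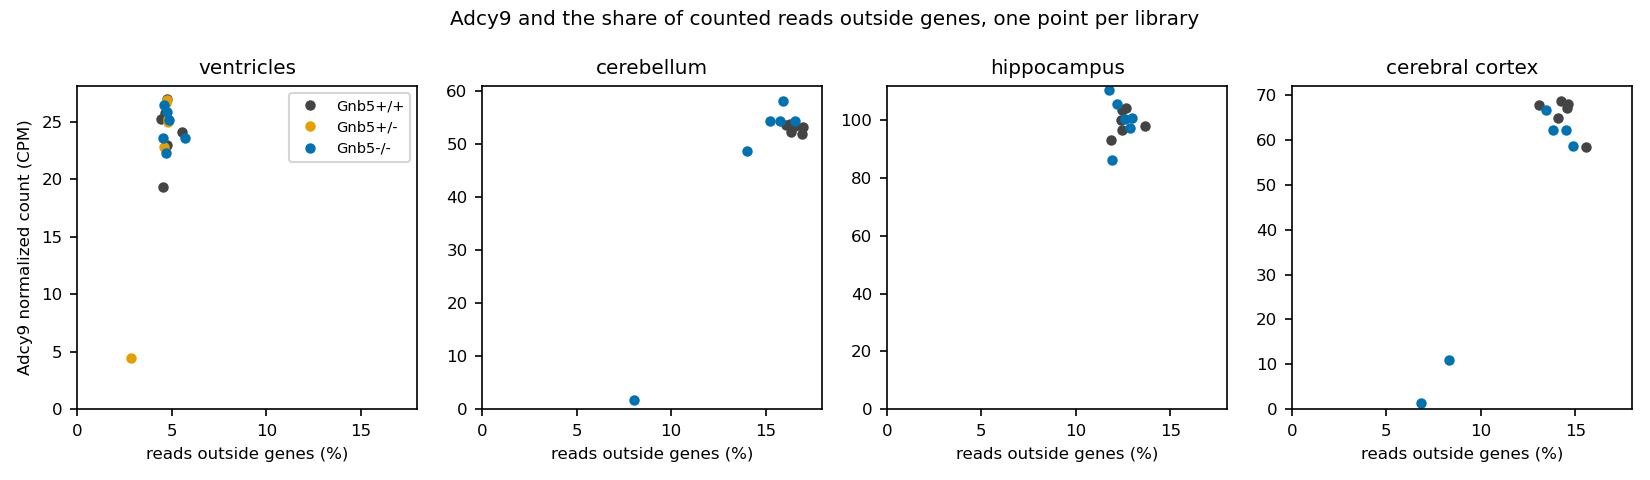
Adcy9 (normalized count, CPM) against the share of reads outside annotated genes (%), 1 point per library, in ventricles and the 3 brain regions. The libraries at 2.85% in ventricles, 8.02% in cerebellum and 6.86% and 8.32% in cortex hold the lowest Adcy9 values (4.41, 1.71, 1.28 and 10.96), and hippocampus has no such library.

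Adcy5 in cortex also varied between wild-type mice. Its values ran from 230 to 389 CPM (median 289), the widest spread relative to the mean of any member in wild-type brain, while the 4 knockout libraries that did not stand apart lay between 303 and 335. The summed CPM of 7 striatal projection neuron genes, which mark the tissue beneath the cortex, ran from 382 to 847 in the wild-type libraries and from 598 to 813 in the knockouts, with all 7 genes detected. Across the 6 wild-type mice Adcy5 and this sum had r = 0.96 (exact permutation p = 0.0056, adjusted 0.017 over 3 relations) and rho = 0.94 (p = 0.017, adjusted 0.050), and r was 0.90 without the 2 mice farthest in the sum. The relation was chosen after the values were seen. In the knockout group 2 of 6 libraries stood apart and no r was computed. The knockout difference of Adcy5 was -0.15 ± 0.19 with all libraries and 0.08 ± 0.11 without those 2 (adjusted p = 0.65 and 0.98).

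The genes around the cyclases were counted as 3 lists: 19 effectors and scaffolds of cyclic AMP (protein kinase A subunits and inhibitors, Epac, Popeye and AKAP genes, and the soluble cyclase Adcy10), 7 G protein alpha subunits and 3 calmodulin genes. Of the 27 to 29 genes tested per comparison, edgeR called 0 between genotypes in any tissue, where it called 0.0124% to 0.253% of all genes. DESeq2 called 1, Gnai2 in cerebellum, and its share of all genes called is not given. In edgeR, 1 or 2 had an unadjusted p below 0.05 in each comparison (3 for Gnb5-/- against Gnb5+/- in ventricles). Of all genes, 4.78% to 8.79% passed that threshold, depending on the comparison (8.79% for Gnb5-/- against Gnb5+/- in ventricles). The gene of smallest p in knockout ventricles was Pkia, which encodes an inhibitor of protein kinase A, at 189 ± 27 CPM against 238 ± 26 in wild-type (log2 difference -0.33 ± 0.11, adjusted p = 0.55). In knockout atria it was Prkar2b, a regulatory subunit of the kinase (0.67 ± 0.29, adjusted p = 0.54). In hippocampus it was Popdc2, a cyclic AMP-binding Popeye gene (-1.49 ± 0.68, adjusted p = 0.65). Popdc2 was near the floor there, at 0.32 ± 0.16 CPM (SD) against 0.91 ± 1.34 in wild-type, and DESeq2 gave no p-value for it. The summed CPM of the ventricular muscle genes reached 54.8 in wild-type hippocampus (median 4.14), and its part in this value was not tested. In cortex the gene of smallest p was Pkia again, at 207 ± 57 CPM against 162 ± 13 (0.35 ± 0.15, adjusted p = 0.47, and 0.11 ± 0.07 without the libraries that stood apart). In cerebellum it was Gnai2, an inhibitory alpha subunit, at 149 ± 9 against 127 ± 7 CPM (0.23 ± 0.06). Its adjusted p was 0.58 in edgeR and 0.021 in DESeq2, and without the library that stood apart the edgeR values were 0.21 ± 0.05 and 0.096. In the heterozygous contrasts it was Bves, another Popeye gene, in atria (-0.24 ± 0.09, adjusted p = 0.65), and Rapgef3, which encodes Epac1, in ventricles (-0.26 ± 0.10, adjusted p = 0.96, and -0.25 without the library that stood apart). Between knockout and heterozygous mice it was the scaffold gene Akap5 in atria (-0.64 ± 0.26, adjusted p = 0.98) and Rapgef3 in ventricles (0.27 ± 0.10, adjusted p = 0.45, and 0.26 without that library).

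The same lists were counted between wild-type tissues. Between atria and ventricles 18 of 29 genes differed (53.6% of all genes), 6 higher and 12 lower in atria (31% and 22.7% of all genes), and of the 19 effectors and scaffolds 1 was higher and 10 were lower. Between ventricles and cerebellum 27 of 29 differed (87.3% of all genes), 13 higher and 14 lower, with all 3 calmodulin genes lower in ventricles, at a median log2 difference of -2.22 (-0.27 over all genes). Between hippocampus and cortex 19 of 29 differed (37.7% of all genes), 6 higher and 13 lower in hippocampus, and the calmodulin genes differed by -0.05 to 0.10.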

How the data were processed

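Each of the 72 libraries (TruSeq Stranded Total RNA) was deposited as read counts per Ensembl gene. The authors trimmed reads with cutadapt 1.8, removed ribosomal and low-complexity reads, aligned to GRCm38 with STAR 2.5.3a and counted with htseq-count (HTSeq 0.9.1). Counts were whole numbers without normalization. Tissue, genotype and mouse came from the labels. Symbols, coordinates and exon lengths were taken from GENCODE M21, which matched 53620 of 53715 identifiers. Reads outside genes are given as a percentage of all reads assigned, ambiguous or without a gene, and entered no library size.

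Counts were normalized by TMM, filtered with filterByExpr (count minimum 10) and tested by edgeR's quasi-likelihood test (edgeR 4.0.16, R 4.3.3), with Benjamini-Hochberg adjustment over all genes tested and a threshold of 0.05. Genotypes were compared within a tissue (~genotype; 18 libraries in heart, 12 in brain), wild-type tissues in 1 fit of 30 libraries and interactions in fits of 36 libraries, both with mouse as a block because the tissues came from the same animals (same-mouse libraries of 2 tissues correlated in their deviations by 0.13 to 0.49). Each SE was derived from a fold change and its F statistic (|log2 fold change| over root F). CPM use TMM factors of 1 tissue, and CPM per kb use factors over all libraries and the exon length. Exact permutation tests used log2 CPM (prior count 2), 2-sided. DESeq2 1.42.0, RLE factors, other filters, blocks, subsets of samples and each library left out were the alternatives. Analyses without the libraries that stood apart (under 70% of the tissue's median share of reads outside genes), with atrial markers as a covariate and with library totals alone were added after seeing the data. Scripts were tested on simulated data.

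Members and gene lists were chosen with earlier results of these data known. All 9 members are named. In the 3 pathway lists the gene of smallest p in each genotype comparison is named, as well as any called. For each member the 2 most similar genes of 16137 are named. Precision was taken from the spread between mice, which includes counting error. No protein sequence is shown.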

Additional observations from a re-analysis of the deposited data

Results flagged for a closer look

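In 13 of 108 groups of 6 libraries, the highest or lowest CPM of a member lay far from the others by Dixon's criterion, where chance gives about 1 in 20 groups. Of these values, 4 came from libraries that stood apart: Adcy1 at 967 CPM in knockout cerebellum replicate 2 (others 2579 to 3214), Adcy2 at 30.2 in the same library (others 41.6 to 44.8), Adcy9 at 1.71 in the same library (others 48.8 to 58.2), and Adcy9 at 4.41 in heterozygous ventricles replicate 4 (others 22.8 to 26.9). The Adcy1 comparison in ventricles held 2 more, the highest knockout mouse (replicate 3) at 7.07 (others 2.91 to 4.37) and the highest wild-type mouse (replicate 1) at 3.26 (others 2.01 to 2.42). Adcy8 in ventricles was lowest at 0.767 in heterozygous replicate 3 (others 1.34 to 1.60) and highest at 1.496 in knockout replicate 6 (others 0.737 to 0.983). Adcy4 was lowest at 19.6 in wild-type ventricles replicate 1 (others 23.9 to 25.6) and highest at 5.85 in knockout hippocampus replicate 3 (others 4.06 to 4.64). Adcy5 was lowest at 110.8 in heterozygous atria replicate 4 (others 129.9 to 134). Adcy7 was lowest at 3.52 in wild-type cerebellum replicate 2 (others 3.83 to 4.00), and Adcy9 at 58.4 in wild-type cortex replicate 5 (others 64.9 to 68.7). Wild-type ventricles replicate 1 thus appeared for both Adcy1 and Adcy4. No cause was tested.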

How the results depend on the processing

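Few counts of members called changed. In ventricles, knockout against wild-type rose from 0 to 1 with DESeq2 and ranged from 0 to 1 when each library was left out, and knockout against heterozygous fell from 1 to 0 in a fit of these 2 genotypes alone and ranged from 0 to 1. The interaction of ventricles and atria went from 0 to 1 without a filter on low counts, where the share of all genes that passed is not given. Each of these changes was Adcy1, and the cause was not tested. In the other genotype contrasts the count was 0 under every alternative run. The replicate number as a block (adjusted p = 0.089 for Adcy1 against wild-type, 0.024 against heterozygous) changed no count. The numbers join different animals: same-numbered knockout and wild-type libraries correlated in their deviations by -0.24 to 0.15.

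Most sign changes ended at log2 fold changes near 0, and the values listed are those after the change. Some values before the change were farther from 0. Adcy9, for example, started at -0.23 for knockout against wild-type in cerebellum and at -0.28 for the interaction of cerebellum against hippocampus. Without the libraries that stood apart, the values that turned were in ventricles 0.034 (Adcy5) and 0.071 (Adcy9) for heterozygous against wild-type and -0.047 (Adcy9) for knockout against heterozygous. For knockout against wild-type they were in cerebellum 0.0064 (Adcy1), 0.014 (Adcy2), 0.049 (Adcy5), 0.023 (Adcy7) and 0.028 (Adcy9), and in cortex 0.083 (Adcy5) and 0.071 (Adcy7). Among interactions they were 0.0083 (Adcy2), 0.022 (Adcy6) and 0.011 (Adcy9) for cerebellum against hippocampus, -0.090 (Adcy5) and -0.034 (Adcy6) for cerebellum against cortex, and -0.0097 (Adcy3), -0.19 (Adcy4), -0.16 (Adcy5), -0.055 (Adcy6) and -0.22 (Adcy7) for hippocampus against cortex. RLE factors turned the interactions of Adcy3 (-0.012, cerebellum against hippocampus) and Adcy4 (0.0026, cerebellum against cortex), no filter turned the same to -0.0060 and 0.016, and no replicate block turned Adcy4 to 0.0070 and Adcy7 (hippocampus against cortex) to -0.018. Between wild-type tissues, Adcy4 in atria against ventricles became -0.022 with DESeq2 and with RLE factors and -0.028 with these tissues alone, Adcy5 in atria against hippocampus -0.31 with library totals alone, and Adcy9 in ventricles against cerebellum 0.063 with these tissues alone. Per-tissue counts of members stayed within 1.5 times. Of 45 wild-type shares, 35 moved by over 1 SD on CPM without division by length. Low reads limit Adcy2 and Adcy8 in the heart.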

Other observations

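Across the 72 libraries the members fell into opposed sets by Pearson's r of log2 CPM, a description that mostly follows the contrast of heart and brain, since libraries share tissues and mice. Adcy4, Adcy6 and Adcy7 had r of 0.96 to 0.98 with each other, although they belong to different regulatory classes. Adcy2 and Adcy3 had r = 0.99, and each had r between -0.94 and -0.84 with Adcy4, Adcy6 and Adcy7. Adcy5 and Adcy9 followed neither set, with r between -0.35 and 0.53 to every other member and 0.0038 to each other. The values of Adcy9 include its low levels in the 4 libraries that stood apart, and no r was computed without them. Adcy1 and Adcy8, both stimulated by calmodulin, had r = 0.58, below the 0.86 of Adcy1 with Adcy2.

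The choroid plexus marker sum, which traces a tissue attached to the hippocampus and other regions, ranged from 25.4 to 1183 CPM across wild-type hippocampi and from 26.1 to 219 in knockout hippocampi. Its part in the small Adcy7 difference there was not tested.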
